A study of Mus musculus with 4 samples.

Results

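ATF4 and CHOP are transcription factors of the integrated stress response, and 10 genes of this response were followed in induced regulatory T (iTreg) cells cultured with or without iron. They were chosen by name, with earlier results of these data known. They were the transcription factor genes Atf4, Atf3, Atf5, Ddit3 (which encodes CHOP), Cebpb and Cebpg, and the target genes Trib3, Chac1, Sesn2 and Asns. All 10 were found by symbol among 47729 gene rows. The cells were splenic CD4 T cells of C57BL/6 mice, while the study's culture methods name naive CD4 T cells from spleen and lymph nodes. They were cultured for 4 days with IL-2 at 100 U/mL, TGF-β at 5 ng/mL and blocking antibodies to IFN-γ and IL-4, each at 5 µg/mL. The FeSO4 group also received ferrous sulfate at 50 µM and the Mock group received PBS, with 2 libraries per group. The libraries of a group came from independent experiments, and the T cells were activated through CD3 and CD28.

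The integrated stress response begins when a kinase that senses heme shortage, misfolded protein in the endoplasmic reticulum, amino acid shortage or viral RNA phosphorylates the translation factor eIF2. Most protein synthesis then falls, while translation of the Atf4 mRNA rises, so the mRNA levels given here are not levels of ATF4 protein. ATF4 pairs with C/EBP proteins at composite C/EBP-ATF elements and switches on genes of amino acid supply and, under lasting stress, CHOP. Activated T cells use ATF4 to supply amino acids for growth.

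The 4 libraries held 35183187 to 40859178 reads in gene rows, and levels are given as CPM, the count scaled by the TMM-adjusted library size. The T cell genes Cd3e (310.1 and 303.5 CPM in Mock, 325 and 346 in FeSO4), Cd4 (631 and 606 in Mock, 671 and 683 in FeSO4) and Cd3g (368 and 349 in Mock, 505 and 512 in FeSO4) were each higher in both FeSO4 libraries, whereas Il2ra overlapped (1395 to 1586 CPM). Foxp3, the defining factor of Treg cells, was at 587 and 693 CPM in Mock and at 376 and 472 CPM in FeSO4. Of the marker genes of other cells, Ms4a1, Pax5, Itgam and Csf1r had at most 7 counts in any library, and Ncr1 and Klrb1c had 0 counts in each of the 4. Lyz2 was at 4.04 CPM in Mock replicate 1 and at most 0.191 CPM elsewhere. Hba-a1 was at 19.6 to 24.5 CPM in Mock and at 32.5 to 37.5 CPM in FeSO4. Cd79a and Adgre1 had 8 to 107 counts, and Cd8a and Cd8b1 had 25 to 361, with no separation of the groups except for Cd8b1 (7.49 and 8.39 CPM in Mock, 9.22 and 9.75 in FeSO4). The part of these markers in the results was not tested, and in bulk RNA more cells of a kind and more RNA per cell cannot be told apart.

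Because several of the genes are direct targets of ATF4, their promoters were searched for the core of the C/EBP-ATF element, TGATGNAA, on both strands (TTNCATCA on the other). The windows ran from 250 bases before to 50 bases after the RefSeq start site (GRCm38.p6). Of the 11 windows of the 10 genes, 4 held a match, against 3.97% of all 32851 windows. The matches lay in Asns, Atf3, Chac1 and Trib3. The cAMP response element TGACGTCA was in 0 of the 11 windows and in 1.79% of all windows. A match is a run of letters, not a measured binding site. The 10 genes were picked as known targets or partners of ATF4 and CHOP, so these shares describe them and are not a test. The 4 stretches are shown 5′ to 3′ on the strand of the gene, with the match in capitals, because 3 of these genes had the largest increases past the threshold among the 10. The match begins 23 bases before the start site in Asns, 110 in Atf3 and 193 in Chac1, and 14 bases after it in Trib3.
Asns (chr6:7693210-7693272, minus strand): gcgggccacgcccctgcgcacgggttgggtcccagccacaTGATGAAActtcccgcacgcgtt
Atf3 (chr1:191183396-191183483, minus strand): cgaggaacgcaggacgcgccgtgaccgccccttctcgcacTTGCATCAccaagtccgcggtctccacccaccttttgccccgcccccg
Chac1 (chr2:119351009-119351096, plus strand): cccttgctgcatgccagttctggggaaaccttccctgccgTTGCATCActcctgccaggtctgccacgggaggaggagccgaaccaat
Trib3 (chr2:152344028-152344057, minus strand): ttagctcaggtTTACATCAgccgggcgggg

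Iron-treated cells held more mRNA of ATF4, of its partner C/EBPγ, and of 3 genes known as ATF4 targets. Atf3, Asns, Trib3, Cebpg and Atf4 rose, by 1.42 to 5.06 times, whereas Ddit3 itself, the gene for CHOP, did not rise and had a negative log2 fold change. Thus, with edgeR's quasi-likelihood test and an adjusted p under 0.05, 5 of the 10 genes were higher in FeSO4 than in Mock and 0 lower. Over all 13732 genes tested, 10.9% were higher and 9.17% lower by the same rule. The 10 genes were chosen with earlier results of these data known, so these shares describe them and are not a test. At an unadjusted p under 0.05, 7 of the 10 were higher (6 without Chac1) and 1 was lower, where 17.1% of all genes were higher and 15.2% lower. DESeq2 and limma-voom also called 5 higher and 0 lower. At the threshold that the study used (unadjusted p under 0.05 and a change of 0.5 or more on the log2 scale), 6 of the 10 were higher (5 without Chac1) and 0 lower, where 4.67% of all genes were higher and 5.73% lower. These counts are from edgeR. The study applied this threshold with DESeq2. In DESeq2 as run here on the same filtered genes, 5 of the 10 were past this threshold. In edgeR with scaling by library size only, 3 of the 10 were past it. Both FeSO4 libraries lay above both Mock libraries in 8 of the 10 genes and below them in 1, and 1 overlapped. Over all genes tested, 59.5% had groups that did not overlap. The median log2 fold change of the 10 was 0.52, and 0.51 for the 9 without Chac1, which passed the filter on low counts only through its FeSO4 libraries. It was -0.00052 over all genes tested.

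**Figure D1:**
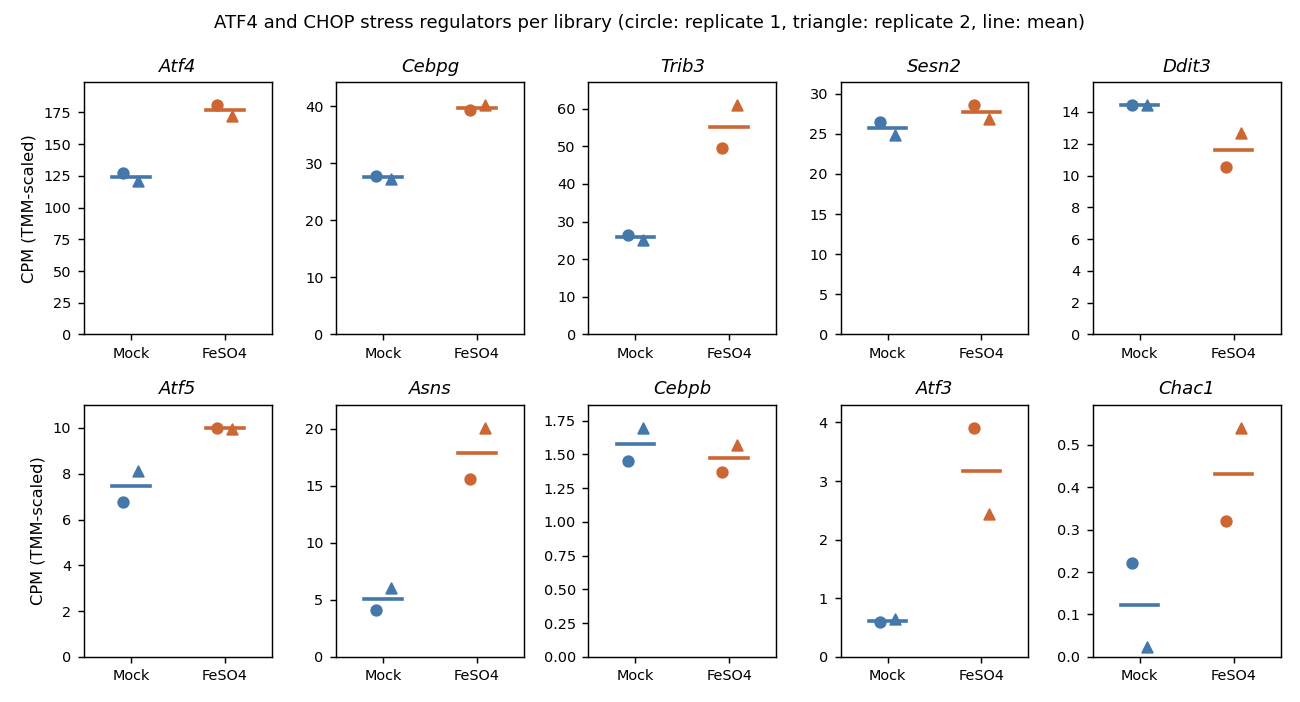
CPM (TMM-scaled, linear axes from 0) of the 10 genes in each library, with circles for replicate 1, triangles for replicate 2 and a line at the group mean. The FeSO4 points of Atf4, Cebpg, Trib3, Asns and Atf3 lie well above their Mock points, those of Ddit3 lie below, and those of Cebpb overlap.

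Among the transcription factors, Atf4 was the most abundant. Atf4 (ENSMUSG00000042406, chr15:80255184-80257545, plus strand, GRCm38.p6) was at 128 and 121 CPM in Mock and at 181 and 173 CPM in FeSO4. Both FeSO4 libraries lay above both Mock libraries, and the libraries of a group differed little. The mean ± SD of the 2 libraries was 124 ± 4.71 CPM in Mock and 177 ± 5.77 CPM in FeSO4. Atf4 thus rose by 0.51 ± 0.07 (log2, SE), with an adjusted p of 5.49e-05. The ratios of the same-numbered libraries were 0.50 and 0.51 on the log2 scale.

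Cebpg encodes C/EBPγ, a C/EBP protein that pairs with ATF4 and lacks an activation domain of its own. Cebpg (ENSMUSG00000056216, chr7:35046422-35056566, minus strand) was at 27.8 and 27.2 CPM in Mock and at 39.3 and 40.2 CPM in FeSO4. The groups were far apart compared with the spread within them. The log2 fold change was 0.53 ± 0.09 (SE, adjusted p = 0.000641), close in size to that of Atf4, although a difference between the genes was not tested.

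Atf3 encodes a stress-induced factor that acts mostly as a repressor. Atf3 (ENSMUSG00000026628, chr1:191170296-191183333, minus strand) had 24 and 27 counts in Mock and 134 and 90 in FeSO4, or 0.592 and 0.646 CPM against 3.91 and 2.43 CPM. It was thus a rare transcript in both groups, and the FeSO4 libraries differed from each other by more than the Mock libraries did. Atf3 rose by 2.34 ± 0.40 (log2, SE), with an adjusted p of 0.000592. The ratio of the summed counts, scaled by TMM-adjusted library size, was 5.08 (95% exact interval 3.73 to 7.02, counting error only).

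Atf5 encodes a factor related to ATF4 whose translation is also favored when eIF2 is phosphorylated. Atf5 (ENSMUSG00000038539, chr7:44812256-44816658, minus strand) was at 6.78 and 8.11 CPM in Mock and at 10.01 and 9.97 CPM in FeSO4. Both FeSO4 libraries were above both Mock libraries, but the Mock libraries also differed from each other. The log2 fold change of 0.42 ± 0.17 (SE) did not pass the threshold (adjusted p = 0.082). In the mm9 annotation its exons overlap those of Il4i1 and Nup62 on the other strand. Il4i1 had at most 4 counts in any library, and Nup62 was not analysed here.

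Ddit3 encodes CHOP, a C/EBP relative that dimerizes with other C/EBP proteins and is linked to cell death under lasting stress. Ddit3 (ENSMUSG00000025408, chr10:127290793-127296291, plus strand) was at 14.4 and 14.4 CPM in Mock and at 10.5 and 12.6 CPM in FeSO4. It was the gene among the 10 whose FeSO4 libraries both lay below both Mock libraries. The log2 fold change of -0.31 ± 0.14 (SE) did not pass the threshold (adjusted p = 0.131), and it ran from -0.45 to -0.19 when FeSO4 replicate 2 or FeSO4 replicate 1, respectively, was left out. Its exons overlap those of Mars on the other strand (mm9 annotation), whose counts rose (log2 fold change 0.27 ± 0.08, SE, adjusted p = 0.0246). The strand setting of the counting is not given in the sources used here, and the part of the overlap in the value of Ddit3 was not tested.

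Cebpb encodes C/EBPβ, a factor of inflammatory and stress responses. Cebpb (ENSMUSG00000056501, chr2:167688915-167690432, plus strand) had 47 to 71 counts per library, at 1.45 and 1.70 CPM in Mock and at 1.37 and 1.57 CPM in FeSO4. The groups overlapped, and the log2 fold change of -0.10 ± 0.35 (SE) did not pass the threshold, at an adjusted p of 0.884. Without Mock replicate 2 the sign turned, to 0.02.

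**Figure D2:**
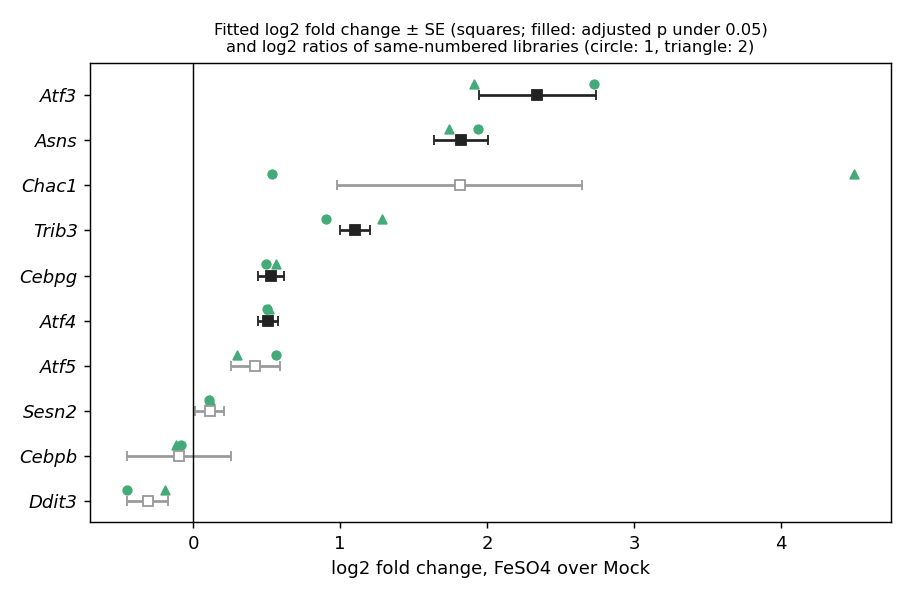
Log2 fold change (FeSO4 over Mock) of the 10 genes as squares with SE bars, filled where the adjusted p is under 0.05, beside the log2 CPM ratios of the same-numbered libraries (circle for 1, triangle for 2). Atf4 and Cebpg have short bars near 0.5, Trib3, Asns and Atf3 lie above 1, and Chac1 has the longest bar (SE 0.83), with library ratios of 0.53 and 4.50.

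Of the effector genes, Asns changed most among those with an adjusted p under 0.05. Asns encodes asparagine synthetase, which makes asparagine from aspartate. Asns (ENSMUSG00000029752, chr6:7675165-7693209, minus strand) was at 4.07 and 6.03 CPM in Mock and at 15.6 and 20.1 CPM in FeSO4. Both FeSO4 libraries lay far above both Mock libraries. The mean ± SD of the 2 libraries was 5.05 ± 1.39 CPM in Mock and 17.8 ± 3.19 CPM in FeSO4. Asns thus rose by 1.82 ± 0.19 (log2, SE), with an adjusted p of 3.86e-06.

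Trib3 encodes a pseudokinase that binds ATF4 and CHOP and the kinase AKT and restrains them. Trib3 (ENSMUSG00000032715, chr2:152337425-152344060, minus strand) was at 26.5 and 25 CPM in Mock and at 49.5 and 60.9 CPM in FeSO4. It had the smallest p of the 10 genes and stood at rank 53 among all genes tested. The log2 fold change was 1.10 ± 0.10 (SE, adjusted p = 1.58e-06). The FeSO4 libraries spread more than the Mock libraries, and the ratios of the same-numbered libraries were 0.90 and 1.28 on the log2 scale.

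Chac1 encodes an enzyme that breaks down glutathione and is strongly induced by ATF4 and CHOP in other cells. Chac1 (ENSMUSG00000027313, chr2:119351242-119354326, plus strand) was near the limit of detection, with 9 and 1 counts in Mock and 11 and 20 in FeSO4. In CPM these were 0.222 and 0.0239 against 0.321 and 0.540, where the 3 counts that a count of 0 allows correspond to 0.0717 to 0.0876 CPM. The ratio of the summed counts, scaled by TMM-adjusted library size, was 3.58 (95% exact interval 1.71 to 8.19, counting error only). Across the libraries the difference did not pass the threshold (log2 fold change 1.81 ± 0.83, SE, adjusted p = 0.141). Its size depended on both Mock libraries, which had 9 and 1 counts. Without Mock replicate 2 the log2 fold change was 0.96, and without Mock replicate 1 it was 4.00.

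Sesn2 encodes Sestrin2, a leucine sensor that restrains mTORC1. Sesn2 (ENSMUSG00000028893, chr4:132492804-132510456, minus strand) was at 26.5 and 24.8 CPM in Mock and at 28.5 and 26.9 CPM in FeSO4. The groups did not overlap but lay close together. The log2 fold change of 0.11 ± 0.10 (SE) did not pass the threshold (adjusted p = 0.483), and it was 0.05 with library size only.

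**Figure D3:**
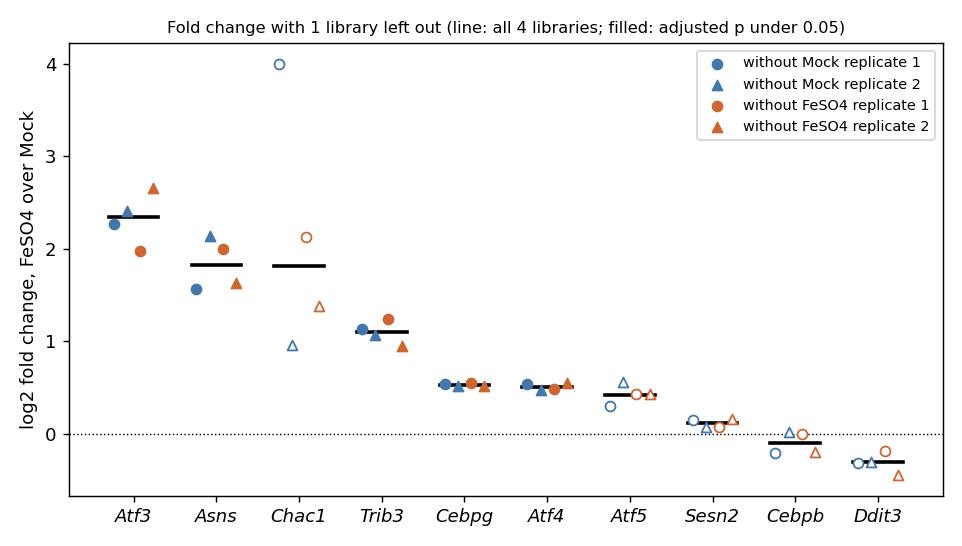
Log2 fold change (FeSO4 over Mock) of the 10 genes with each library left out in turn, with a line for the fit of all 4 libraries and filled symbols for an adjusted p under 0.05. The symbols of Atf3, Asns, Trib3, Cebpg and Atf4 are all filled, those of the other 5 genes are all open, and Chac1 runs from 0.96 to 4.00.

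Levels of different genes can be set side by side only per length, so CPM was divided by the exon length in kilobases (GENCODE M1). In Mock, Atf4 was at 72.1 CPM per kilobase on average, followed by Trib3 (12.1), Ddit3 (8.42), Sesn2 (7.38), Cebpg (5.58), Atf5 (3.74), Asns (1.85), Cebpb (1.05), Atf3 (0.312) and Chac1 (0.0751). No neighbors in this order had overlapping libraries in Mock. In FeSO4, Atf4 was at 102 and Trib3 at 26, and Cebpg (8.05) and Sesn2 (7.98) came next with overlapping libraries. Ddit3 (6.77) and Asns (6.52) also overlapped in FeSO4, so that Asns, which had lain far below Ddit3 in Mock, was no longer apart from it. Atf5 (5.02), Atf3 (1.60), Cebpb (0.977) and Chac1 (0.263) followed, and Atf3 and Cebpb had thereby changed places.

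Upstream of ATF4 stand the kinases of eIF2 and eIF2 itself. The list of eIF2 kinases and their activators had 8 genes, among them also Impact, an inhibitor of GCN2 (log2 fold change 0.10). The kinases themselves, Eif2ak1 (HRI, the heme sensor), Eif2ak2 (PKR), Eif2ak3 (PERK) and Eif2ak4 (GCN2), had log2 fold changes of -0.08, 0.14, -0.14 and 0.15 with adjusted p from 0.271 to 0.492. Of this list, 0 were higher and 2 were lower at an adjusted p under 0.05 (0 higher and 2 lower also at an unadjusted p under 0.05, and by DESeq2 and limma-voom). These were Dele1, which carries mitochondrial stress to HRI (-0.27 ± 0.09, SE, adjusted p = 0.0371), and Gcn1, an activator of GCN2 (-0.21 ± 0.07, SE, adjusted p = 0.0374). Both calls were lost without Mock replicate 2 and without either FeSO4 library, and 1 of the 2 without Mock replicate 1. Neither was called when genes of low count were also tested. The median of the list was -0.08, and it was -0.03 without FeSO4 replicate 2 and -0.15 with scaling by library size only.

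Of 10 subunits of eIF2, of its exchange factor eIF2B and of the eIF2 phosphatase, 4 were higher and 0 lower (4 and 0 at an unadjusted p under 0.05, and by DESeq2 and limma-voom). Among all genes tested, 10.9% were higher and 9.17% lower. The median log2 fold change of the 10 subunits was 0.14 (0.06 without FeSO4 replicate 1, 0.08 with library size only). The 4 were Eif2s2 (125 and 132 CPM in Mock, 180 and 184 in FeSO4; 0.50 ± 0.07, SE, adjusted p = 5.58e-05), Eif2s1 (0.30), Eif2b3 (0.46) and Eif2b1 (0.29). Ppp1r15a, the stress-induced phosphatase subunit GADD34 that reverses the response, was at 32.8 and 40.4 CPM in Mock and at 33.5 and 36.3 in FeSO4, and the groups overlapped.

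Of 29 other known ATF4 targets that were matched, 25 were tested, and 13 were higher and 2 lower (11 and 2 by DESeq2, 12 and 2 by limma-voom), with a median log2 fold change of 0.23. Among all genes tested, 10.9% were higher and 9.17% lower. Slc6a9, a glycine transporter gene named after its values were seen, was among the higher genes with 3 and 17 counts in Mock and 46 and 38 in FeSO4, and 12 were higher where at least 10 counts in every library were required. Those of smallest p were Psat1, an enzyme of serine synthesis (106 and 108 CPM in Mock, 159 and 139.7 in FeSO4; 0.48 ± 0.07, SE, adjusted p = 0.000226), Eif4ebp1, an inhibitor of cap-dependent translation (0.66 ± 0.11, SE, adjusted p = 0.000386), Slc3a2, the shared heavy chain of amino acid exchangers (0.34 ± 0.06, SE, adjusted p = 0.00142), and Mthfd2, an enzyme of mitochondrial one-carbon metabolism (0.34 ± 0.06, SE, adjusted p = 0.00156). The 2 lower genes were Ddit4, an inhibitor of mTORC1 (-0.27 ± 0.07, SE, adjusted p = 0.012), and Aldh18a1, an enzyme of proline synthesis (-0.26 ± 0.07, SE, adjusted p = 0.0109). Without FeSO4 replicate 1, 7 were higher and 1 lower, without Mock replicate 1, 8 were higher, and without Mock replicate 2 or FeSO4 replicate 2, 1 was lower. With no filter on low counts, 5 were higher and 0 lower. The 4 untested genes were Gdf15 and Fgf21, with at most 4 counts in a library, and, named after their values were seen, Vldlr and Slc7a11, with at most 18.

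**Figure D4:**
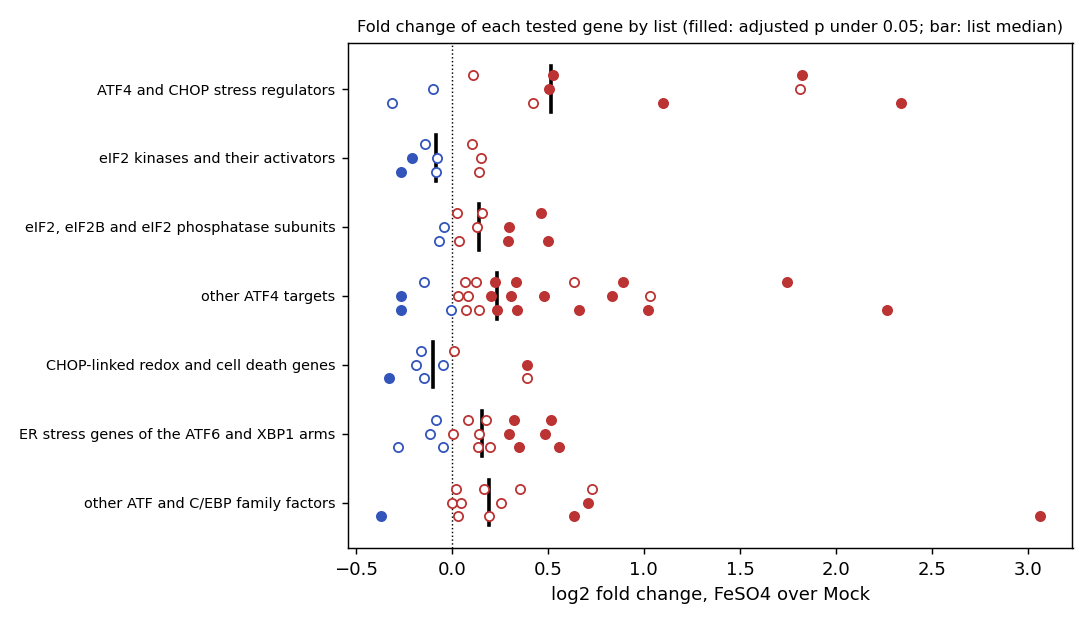
Log2 fold change (FeSO4 over Mock) of each tested gene in the 7 lists, red above and blue below 0, filled where the adjusted p is under 0.05, with a bar at the list median. The 10 regulators have a median of 0.52, the other ATF4 targets of 0.23, and the genes linked to CHOP of -0.10.

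Among 8 redox and cell death genes linked to CHOP, 1 was higher and 1 lower (1 and 2 at an unadjusted p under 0.05, and also with library size only). Among all genes tested, 10.9% were higher and 9.17% lower (17.1% and 15.2% at an unadjusted p under 0.05). The median log2 fold change of the 8 genes was -0.10. The median was -0.03 without FeSO4 replicate 1, -0.18 without FeSO4 replicate 2 and -0.16 with library size only. Ero1a, an oxidase of the endoplasmic reticulum, was at 63.9 and 75 CPM in Mock and at 87.3 and 95 CPM in FeSO4 (0.39 ± 0.08, SE, adjusted p = 0.00348). Bbc3, which encodes the cell death protein PUMA, was at 32.5 and 29.6 CPM in Mock and at 24.5 and 25 CPM in FeSO4 (-0.33 ± 0.10, SE, adjusted p = 0.0297). The call of Bbc3 was lost without either FeSO4 library, and both calls were lost with no filter on low counts. Tnfrsf10b, which encodes a death receptor, had a log2 fold change of 0.01. Bcl2, which encodes a survival protein, was the other gene lower at an unadjusted p under 0.05 (-0.14 ± 0.07, SE, adjusted p = 0.143). The counts and the median of this list thus join genes of death and of survival.

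The other arms of the response of the endoplasmic reticulum, run by ATF6 and XBP1, were represented by 16 genes. Of these, 6 were higher and 0 lower (9 and 1 at an unadjusted p under 0.05, 5 and 0 by DESeq2, 6 and 0 by limma-voom), with a median log2 fold change of 0.16 (0.09 with library size only). Among all genes tested, 10.9% were higher and 9.17% lower (17.1% and 15.2% at an unadjusted p under 0.05). With the replicate number as a block, 8 of the 16 were higher and 0 lower. Pdia6, a protein disulfide isomerase (0.49 ± 0.06, SE, adjusted p = 5.34e-05), Manf (0.52 ± 0.07, SE, adjusted p = 7.24e-05), Sdf2l1 (0.56 ± 0.08, SE, adjusted p = 0.000114) and Hsp90b1, the chaperone GRP94 (0.32 ± 0.06, SE, adjusted p = 0.00143) had the smallest p. The XBP1 target Dnajb9 and the factor gene Atf6 had log2 fold changes of -0.05 and 0.09, with overlapping groups.

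Of the 16 other ATF, C/EBP and AP-1 factors listed, 13 were tested, and 3 were higher and 1 lower (7 and 1 at an unadjusted p under 0.05), with a median log2 fold change of 0.19 (0.13 with library size only). Among all genes tested, 10.9% were higher and 9.17% lower (17.1% and 15.2% at an unadjusted p under 0.05). Batf3, which encodes a small AP-1 factor, was at 0.665 and 0.55 CPM in Mock and at 5.75 and 4.46 CPM in FeSO4 (3.06 ± 0.34, SE, adjusted p = 1.06e-05). Batf (0.71 ± 0.09, SE, adjusted p = 4.97e-05) and Crem (0.63 ± 0.09, SE, adjusted p = 7.93e-05) also rose. Jun was lower (191 and 244 CPM in Mock, 147 and 189 in FeSO4; -0.37 ± 0.11, SE, adjusted p = 0.0228), and its call was lost with DESeq2, with no filter on low counts, and without Mock replicate 2 or FeSO4 replicate 1. With the replicate number as a block, 6 of the 13 were higher. The untested factors Cebpa, Cebpe and Atf7 had at most 2 counts in any library.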

How the data were processed

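The table the authors deposited gives, for each library, the number of reads per Ensembl gene as raw counts with no normalization. The submitters' processing notes list Trim Galore 0.6.7, STAR 2.7.9a, featureCounts and mm10, whereas the methods name mm9. The table's closing rows have the form that htseq-count writes. Strand setting and annotation are not given in the sources used here. Reads outside gene rows (ambiguous, 3.78 to 3.91% of a library; without a feature, 4.36 to 6.03%; multiply aligned, 4.27 to 4.62%; low quality, 0.802 to 0.988%; unaligned, 1.8 to 2.31%) were left out.

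The analysis used edgeR 4.0.16 (R 4.3.3): filterByExpr with the group (13732 genes, 99.9% of gene counts, among them all 10 members), TMM scaling, and the quasi-likelihood F test (legacy = FALSE) of FeSO4 against Mock, without a block, with Benjamini-Hochberg adjustment over all genes tested. The SE is the log2 fold change divided by the square root of F. Replicates differed by more than sampling noise (chi-square per degree of freedom 11.4 in Mock, 9.35 in FeSO4). With 2 against 2 libraries, an exact permutation test cannot go below p = 0.333 (two-sided), so none was used for single genes. The alternatives were a block for the replicate number, leaving out each library, other filters, other scalings, limma-voom (limma 3.58.1), DESeq2 1.42.0 and, added after seeing the data, the legacy test. Leaving out a library left its group without a replicate, so the spread in that fit came from the other group only.

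The members and lists were chosen with earlier results of these data known. Named from other lists were up to 4 genes of smallest p past the threshold, genes against the list's direction and genes with under 10 counts in every library; genes of known role named beside them are outside this rule. Of 88 genes on the other lists, 87 were matched by ID and symbol. On simulated counts of 13457 genes, 59 of 99 genes changed by 0.5 and 70 of 96 changed by 1 (log2) were called, 0 in the wrong direction, with 9 false calls. Some markers of other cells are not reported here. Sequences and positions are from RefSeq (GRCm38.p6), exon lengths and overlaps from GENCODE M1 (mm9).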

Additional observations from a re-analysis of the deposited data

How the results depend on the processing

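Under each of 13 alternatives, 5 of the 10 genes were higher and 0 lower at an adjusted p under 0.05, and of 129 values for single genes (10 genes, less Chac1 where at least 10 counts in every library were required), 128 kept their direction and their side of the threshold. The exception was Cebpb, whose log2 fold change ran from -0.212 without Mock replicate 1 to 0.0223 without Mock replicate 2. The alternatives include the fits with a library left out, in which the spread came from the other group only. The highest adjusted p over the alternatives was 0.018 for Atf4, 0.0396 for Atf3, 0.0258 for Cebpg, 0.0154 for Trib3 and 0.0202 for Asns. The lowest was 0.0583 for Chac1, 0.0629 for Atf5 and 0.0676 for Ddit3.

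With library size only, 980 genes were higher over the whole table (1810 lower), 35.1% of calls against 54.2% with TMM, and 3 of the 10 genes, not 6, were past the study's threshold. This scaling moved the median of all genes to -0.0655 on the log2 scale. With no filter, 524 genes were higher and 304 lower. With 1 library left out, 893 to 1199 genes were higher, 710 to 1158 lower, and 4 to 6 of the 10 genes were past the study's threshold. The cause was not tested. With the replicate number as a block, 1847 genes were higher and 1580 lower, and 5 of the 10 genes were higher and 0 lower. Deviations of same-numbered libraries correlated weakly (Pearson r = 0.0647 across genes, pseudocount 0.5 CPM). The methods state that the samples formed 2 pairs, from 2 independent experiments, but the labels do not say that a number marks an experiment. Chac1, Atf3 and Cebpb had the fewest counts of the 10 genes, and the part of depth in their values was not tested.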
